A study of Mus musculus and synthetic construct with 21 samples.

Results

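The sites described here carry a weak copy of the DR1 motif, with exactly 3 mismatches to its 13-base consensus. That consensus is a pair of AGGTCA half-sites in the same orientation with a single A between them. For every site of pools 1 and 3, the native 16-base motif given in the element's name was set against the consensus at all offsets and on both strands, and the fewest mismatches were kept. The rule used sequence only. It took 1048 of the 4500 sites, and each of them had a single best alignment, on the named strand and after 3 flanking bases. Pool 1 held 219 such motifs, each present at 1 site of class w and 1 site of class c. Pool 3 held 355 sites of class w and 255 of class c. More mismatches lay in the first half-site of 606 sites, more in the second of 294, and the remaining 148 had 1 in each half-site and 1 in the spacer.

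The study placed designed DNA elements in reporter plasmids and transfected them into 3T3-L1 cells, a mouse pre-adipocyte line, whose differentiation was induced with dexamethasone (1 µM), insulin (1.7 µM) and IBMX (0.5 mM), the same for both RNA libraries and for the ChIP and input libraries. Cells were harvested for RNA and for ChIP 16 h after transfection. In this massively parallel reporter assay each element drives a transcript with a barcode, and activity is log2(RNA/plasmid), with both counts scaled to their library totals, taken as the median over an element's barcodes. Binding is the log2 ratio of PPARγ ChIP to input counts on the pool 1 plasmids. The names give each site a native form and a second form, taken here to have its motif altered, and do not spell out the class codes w and c. Each library was made once, so every test below ran over sites or barcodes, every SD is over sites, and no p-value covers variation between cultures.

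DR1 elements are bound by a heterodimer of a PPAR and RXR, and PPARγ is the receptor that drives fat cell differentiation. On the element PPAR occupies the first (5′) half-site and RXR the second (3′). PPAR also touches a short extension before the first half-site, whose preferred bases are read here as A, C and T in that order.

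The sequences below show pool 1 sites with large called effects of altering the motif, from the groups damaged in the second and in the first half-site, each 5′ to 3′ with mismatches to the consensus in capitals and the flanking bases first. The first is a full match, for reference, and the other 5 are class w sites of pool 1.
No mismatch, pool 1 w site 158: attaggtcaaaggtca
Second half-site, pool 1 w site 100: ggtaggGcaaaggGGa
Second half-site, pool 1 w site 201: tgtaggtAaaagTtTa
Second half-site, pool 1 w site 638: agcaggGcaaaggGAa
First half-site, pool 1 w site 77: tggaAgtGaaaggtGa
First half-site, pool 1 w site 213: attGggGcaaaggtTa

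Positions are counted from 1 at the first base of the first half-site, so that 1 to 6 are the first half-site, 7 the spacer and 8 to 13 the second half-site. Substitutions are written with the consensus base first. Site 100 carries T4G, T11G and C12G, and site 213 carries A1G, T4G and C12T. Among pool 1 motifs the commonest split was 2 mismatches in the first half-site and 1 in the second (93 motifs), followed by the reverse (53). All 3 mismatches lay in the first half-site of 22 motifs and in the second of 4. Position 4, the T of the first half-site, was mismatched in 76.4% of the motifs with more mismatches in the first half-site and in 51.6% of those with more in the second. Position 12, the C of the second half-site, was mismatched in 27.6% and 53.2% of them. At the reference site 158 (chr12:75006184-75006199) the native median was -0.15 and the altered -0.71. The effect of 0.55 did not pass at this full match (exact permutation, adjusted p = 0.433). Other full matches are not described here.

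The RNA and plasmid libraries held 34801803 and 48330091 counts in pool 1, and 37267216 and 56246463 in pool 3. Members had a median of 10708 to 11286 plasmid counts in pool 1 and of 2997 to 5897 in pool 3, according to class and form. The median number of barcodes with at least 20 plasmid counts was 9 in pool 1 and 11 to 13 in pool 3. The ChIP and input libraries held 1987761 and 1381624 counts. Each element in the table had over 100 input counts, and native binding was listed for 155 of the 219 w members and 122 of the 219 c members.

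In pool 1, w sites with the damage mainly in the second half-site had the higher mean activity, by an amount within the spread over sites. Native activity of w sites ran from -1.98 to 3.86 with a median of 0.12 in the first half-site group (0.36 ± 0.92, SD, n = 127). It ran from -0.80 to 3.60 with a median of 0.43 in the second half-site group (0.63 ± 1.01, SD, n = 62). The groups overlapped over almost their whole range, and the difference of 0.26 did not pass the permutation test over sites (95% interval -0.03 to 0.56, adjusted p = 0.122). The 30 motifs with a mismatch in each half-site and the spacer had a mean of 0.16 ± 1.03 (SD).

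At c sites, where the same motifs sit in other surroundings, activity was low in both groups. Native activity was -0.40 ± 0.43 (SD, n = 127) in the first half-site group and -0.56 ± 0.40 (SD, n = 62) in the second. Above 0 lay 20 of the 127 and 3 of the 62. The second half-site group was lower by 0.16 log2 (second minus first -0.16, adjusted permutation p = 0.0397). This call did not hold for the difference of medians, with even-numbered barcodes only, or without the motifs mismatched in the spacer.

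The w and c sites of one number share their motif, so their difference compares surroundings for a fixed sequence. The gain from c to w was 0.76 ± 1.03 (SD, n = 127) for first half-site motifs and 1.18 ± 0.97 (SD, n = 62) for second half-site motifs. The gain was larger by 0.42 in the second group (95% interval 0.12 to 0.72, adjusted permutation p = 0.0344). With even-numbered barcodes alone the difference was 0.41 and its adjusted permutation p was 0.0777. In pool 3, where w and c sites do not share motifs, the group means lay within 0.01 of each other. Native activity at w sites was -0.29 ± 1.46 (SD) in the first group, which is the 355 sites less the 101 and 55 of the other groups, and -0.28 ± 1.52 (SD, n = 101) in the second, and at c sites -1.29 ± 1.00 (SD, n = 153) and -1.30 ± 0.94 (SD, n = 69). The intervals of those differences were -0.35 to 0.37 and -0.28 to 0.27.

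**Figure D1:**
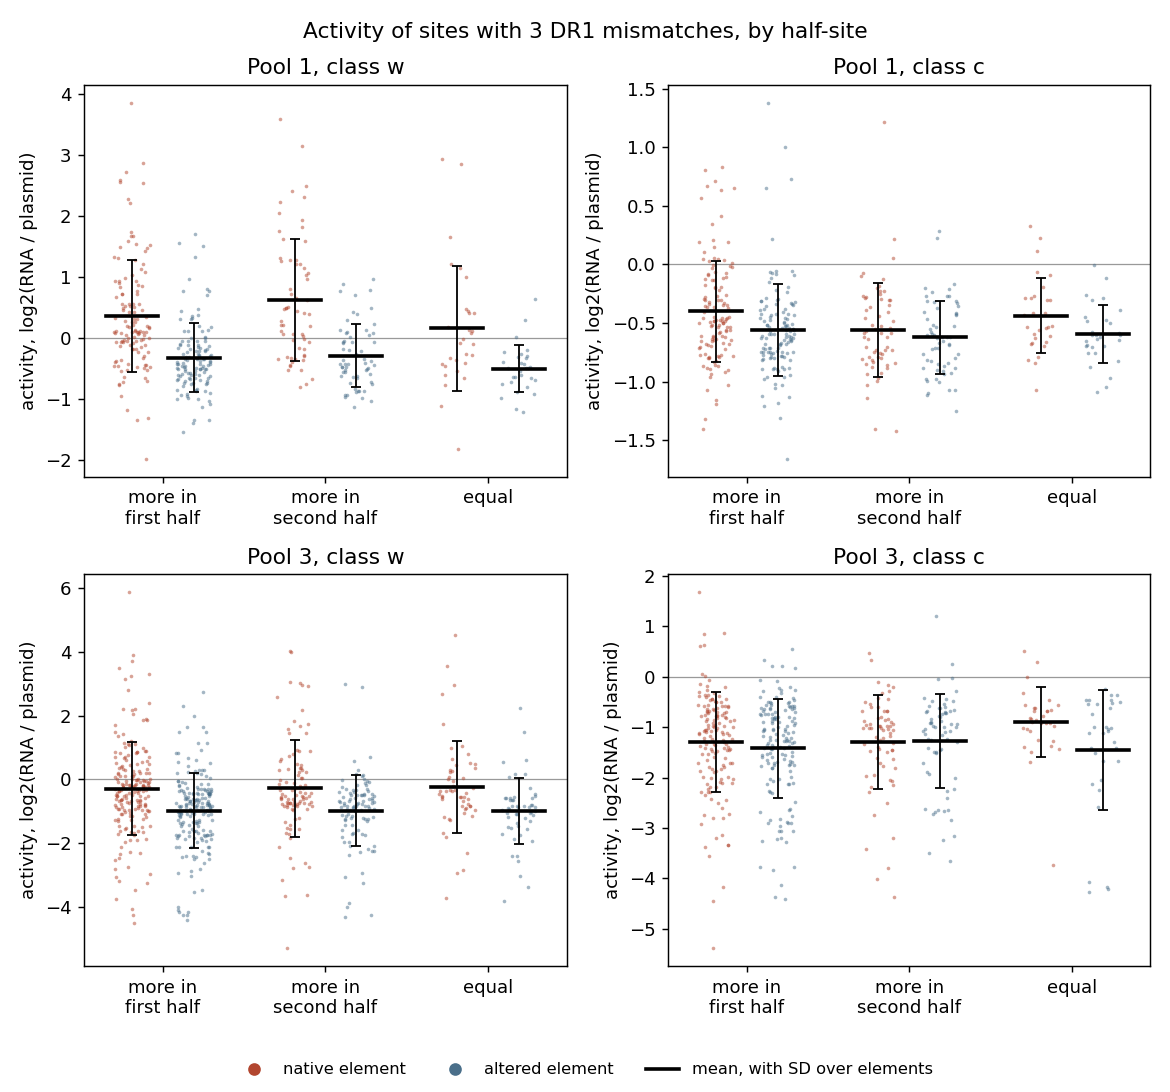
Activity (log2 RNA over plasmid) of every member, in 4 panels by pool and class, with native elements in red and altered elements in blue, and with the mean and SD over elements in black. At w sites native means lie above altered means in all 3 half-site groups of both pools, while at c sites the means lie closer together, except for the equal group of pool 3.

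The w sites lost activity when the motif was altered, whichever half-site held the mismatches. In pool 1 the native element exceeded the altered one at 107 of 127 w sites of the first half-site group, by 0.69 ± 0.86 (SD), and at 54 of 62 of the second, by 0.92 ± 0.86 (SD). In pool 3 the counts were 144 sites (72.4%), with a mean of 0.69 ± 1.46 (SD), and 74 of 101, with 0.70 ± 1.29 (SD). All of these passed the sign-flip permutation test over sites (adjusted p = 3e-05, the lowest reached in this family of 18). The half-site groups differed in this effect by less than the spread over sites, by 0.23 in pool 1 w (95% interval -0.03 to 0.49, adjusted permutation p = 0.213) and by 0.01 in pool 3 w (interval -0.32 to 0.33). Activity of the altered elements did not differ by half-site either, at -0.33 and -0.29 in pool 1 w and at -0.98 in both groups of pool 3 w.

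At c sites the effect of alteration was small. It was 0.16 ± 0.44 (SD) in the first half-site group of pool 1, positive at 84 of 127 sites (adjusted permutation p = 0.00016), and 0.06 ± 0.40 (SD) in the second, positive at 38 of 62 (adjusted permutation p = 0.252). The difference between the groups was -0.10 and did not pass (adjusted permutation p = 0.249). In pool 3 c only the equal group passed, with 0.55 ± 1.08 (SD, n = 33, adjusted permutation p = 0.00699).

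Single sites were tested by permutation of native and altered barcodes, adjusted over all sites of the same pool and class. In pool 1 w, where 31.9% of all 743 sites tested had significantly higher native activity, the call was made for 44 of 124 first half-site members (35.5%), 30 of 62 second half-site members (48.4%) and 9 of 29 equal members (31.0%). In pool 3 w the share over all sites was 18.1%, and the members gave 43 of 187 (23.0%), 26 of 98 (26.5%) and 10 of 54 (18.5%). The share of the second half-site group lay above the background share in both pools. That of the first lay near it in pool 1, at 35.5% here and, with no plasmid minimum, at 28.3% against 29.3% of all sites. In pool 3 the share of the first group also lay above the background. It was 23.0% against 18.1% and, with no plasmid minimum, 16.6% against 14.2%. Whether the shares differ between the half-site groups was not tested. Lower native activity was called at 0.538% of all pool 1 w sites and 1.18% of all pool 3 w sites. It was called at 2 members in each pool (0.930% and 0.590% of those tested), all 4 of them in the first half-site group. At c sites calls were rare. In pool 1 c 1.34% of all sites were called higher and 0.267% lower, against 2 and 1 members, all in the first half-site group. In pool 3 c 0.768% of all sites were called higher and 0% lower, and no member was called either way. At an unadjusted permutation p under 0.05, 10 of 244 members were higher and 6 lower, against 100 and 32 of all 1433 sites.

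The largest called effect among second half-site members of pool 1 was at w site 100 (mm9 chr19:38841002-38841017, minus strand). Its native barcodes lay between 1.81 and 4.05 with a median of 3.60, and its altered barcodes between -0.36 and 0.98 with a median of 0.22. The 9 native and 9 altered barcodes did not overlap, and the effect was 3.38 (exact permutation over barcodes, adjusted p = 0.000764). Its c site with the same motif (chr1:76439674-76439689) had a native median of -0.31 and an altered median of -1.07, an effect of 0.77 that did not pass (exact permutation, adjusted p = 0.607). At site 638 the native median was 3.15 and the altered 0.97, and the effect was 2.18 (exact permutation, adjusted p = 0.00135).

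The motif of site 201 occurred again in pool 3 at another genomic position and showed its effect there too. Pool 1 w site 201 (chr19:4135560-4135575) had native barcodes from 1.43 to 3.34 and altered barcodes from -1.25 to 0.60, an effect of 2.79 (exact permutation, adjusted p = 0.000764). Pool 3 w site 383 (chr11:97183218-97183233) had a native median of 2.91 over 14 barcodes and an altered median of -0.76 over 15, an effect of 3.67 (permutation, adjusted p = 0.000152). The c site of number 201 (chr14:17825272-17825287) had an effect of -0.03. This motif carries C5A, G10T and C12T.

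Altogether 9 of the pool 1 sequences recurred among pool 3 members at other positions. Besides number 201, 4 more recurred at w sites measured with at least 6 barcodes of each form in pool 3, and the effects did not keep a common size. Number 437 gave 1.61 in pool 1 w and 0.82 at pool 3 w site 518. For number 648 the effects were 0.79 and, at pool 3 w site 842, 0.78. The same motif gave -1.27 at pool 3 w site 1394, which had fewer barcodes (5 native and 2 altered). Number 316 gave 1.78 in pool 1 w but -1.02 at pool 3 w site 642, and number 346 gave -0.20 and, at site 768, -0.15. Number 688 gave 1.79 in pool 1 w and -5.25 at pool 3 w site 719, there with only 5 native barcodes and 1 altered barcode.

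The 3 pool 3 w members with the largest called effects in each half-site group are printed to show where the mismatches of such sites lie, except for second half-site site 383, whose motif is that of site 201 above.
Second half-site, pool 3 w site 652: actaggCcaaaggtAG
Second half-site, pool 3 w site 1046: agtaggtcaaGggGTa
First half-site, pool 3 w site 912: gctaggGTaGaggtca
First half-site, pool 3 w site 1368: aatGggAcaaaggCca
First half-site, pool 3 w site 966: agaGggAcaaaggtGa
Equal, pool 3 w site 1450: attGggtcaTaTgtca
Equal, pool 3 w site 1149: tctaggGcaGaTgtca
Equal, pool 3 w site 1001: actaggAcaTGggtca

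Site 912 (chr5:24327468-24327483, minus strand) had the highest native activity of the pool 3 members. Its 15 native barcodes lay between 4.195 and 6.20 with a median of 5.87, and its 15 altered barcodes between -0.16 and 1.79 with a median of 0.92. The effect of 4.94 is the largest among members of pool 3 w (permutation over barcodes, adjusted p = 0.000152). Its first half-site carries T4G and C5T, its spacer A7G, and its second half-site is intact. Site 1046 is the mirror case, with an intact first half-site and A8G, T11G and C12T in the second. Its native median was 3.99 and its altered median 0.71 (effect 3.28, permutation, adjusted p = 0.000377). Site 652 had a native median of 4.04 and an altered median of -0.10, but single barcodes of the 2 forms overlapped (exact permutation, adjusted p = 0.0384).

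Among equal members of pool 1, the w site at chr8:90491393-90491408 (T4C, A7G and G10T) had the largest called effect, with native barcodes from 1.28 to 3.22 and altered barcodes from -1.96 to 0.78 (effect 2.93, exact permutation, adjusted p = 0.000764). Pool 3 w site 1001 had native barcodes from 3.85 to 4.91, above all its altered barcodes, which lay between 0.43 and 1.85. The pool 1 w site at chr3:41089098-41089113, of the first half-site group, had an effect of 2.91 and its sequence is not shown. Sites 77 and 213, whose sequences stand above, had effects of 2.90 and 2.48, the latter with only 3 altered barcodes (exact permutation, adjusted p = 0.0169 and 0.0191).

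The called sites with lower native than altered activity are shown because their direction is opposite to that of the other calls.
Pool 1 w site at chr9:55101544-55101559: tcaaAgCcaaaggtGa
Pool 1 w site 600: accagAGcaaaggAca
Pool 1 c site 575: atgagAGcaaaggCca
Pool 3 w site 1124: tctagAAcaaaggtcG
Pool 3 w site 1066: ctgaCTtcaaaggCca

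All 5 belonged to the first half-site group, which is also the largest, with 187 of the 339 pool 3 w members tested. These calls depended on the plasmid minimum. With at least 100 plasmid counts, 1 first half-site member was called lower in pool 1 w and 0 in pool 3 w, where 1 equal member was. With no minimum, 2 and 4 first half-site members were called lower. The first of the motifs printed above went the same way at both of its positions. At its w position the native median was -0.71 and the altered 0.70, an effect of -1.41 (exact permutation, adjusted p = 0.0125), and at its c position (chr8:10770103-10770118) the medians were -0.19 and 1.01, an effect of -1.20 (exact permutation, adjusted p = 0.0539). There the ChIP ran the other way, with native binding of 0.44 and altered binding of -0.54. Sites 600 and 575 share the substitutions G3A and T4G and gave effects of -1.24 and -1.46.

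In PPARγ ChIP the group means were ordered the other way round from w activity, higher with the damage in the first half-site, and neither difference passed the test. At w sites native binding was 0.74 ± 0.99 (SD, n = 86) in the first half-site group, from -1.05 to 5.04 with a median of 0.54, and 0.52 ± 0.75 (SD, n = 49) in the second, from -0.85 to 3.00 with a median of 0.44. At c sites it was 0.35 ± 0.82 (SD, n = 66) and 0.06 ± 0.78 (SD, n = 42). The differences of -0.22 and -0.30 did not pass (permutation, adjusted p = 0.246 for both), and their 95% intervals ran from -0.52 to 0.08 and from -0.60 to 0.01. The fall in binding on alteration was 0.88 ± 0.91 (SD, n = 82) against 0.54 ± 0.63 (SD, n = 45) at w sites, and 0.53 ± 0.91 (SD, n = 63) against 0.17 ± 0.88 (SD, n = 38) at c sites. The second half-site group had the smaller fall in both classes, by 0.34 and 0.36, with unadjusted permutation p = 0.029 and 0.0547 and an adjusted p of 0.109 for both.

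**Figure D2:**
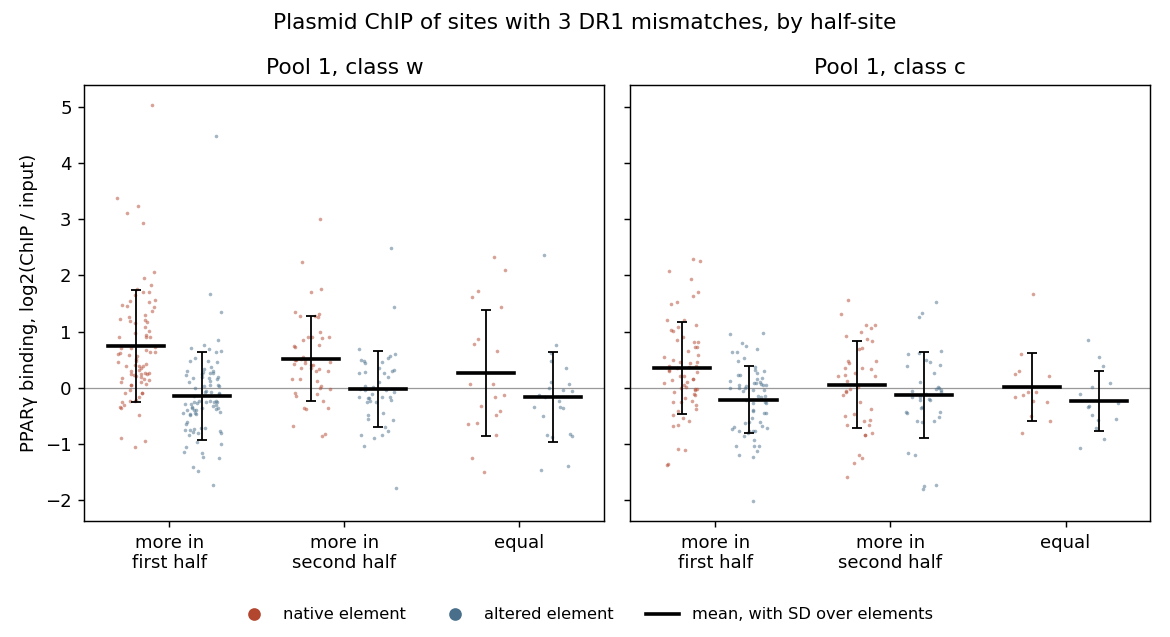
PPARγ binding (log2 ChIP over input) of pool 1 members at w sites (left) and c sites (right), with native elements in red and altered elements in blue, and with the mean and SD in black. The native means of the first half-site group (0.74 and 0.35) are the highest in each panel, and the points of the groups overlap widely.

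Within groups, native binding exceeded altered binding at 68 of 82 w sites and 45 of 63 c sites of the first half-site group (sign-flip permutation, adjusted p = 3e-05 and 7.71e-05). In the second half-site group it did so at 39 of 45 w sites (permutation, adjusted p = 3e-05) and at 20 of 38 c sites (permutation, adjusted p = 0.252). Binding to a motif at its w site and its c site went together in the first half-site group and not in the second, as a description. Pearson's r was 0.71 and Spearman's rho 0.69 over 44 first half-site motifs, and 0.02 and -0.11 over 32 second half-site motifs. These points share the ChIP and input libraries. Native binding and native activity at the same element were only loosely related, with rho between 0.22 and 0.29 in the 4 combinations of group and class.

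The most strongly bound motifs of each group, by the mean of w and c, are shown with the most weakly bound.
First half-site, number 403: agtGggtGaaGggtca
First half-site, number 688: actGggtGaaaggGca
First half-site, lowest, number 353: atgTggAcaaGggtca
Second half-site, number 437: agtaggGcaaaggtTT
Second half-site, number 585: tatGggtcaaaggtTT
Second half-site, lowest, number 40: ctcaggGcaaaggGcT

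Number 403 was bound at both positions, and its activity passed the barcode test at 1 of them. Native binding was 2.93 at w (2464 ChIP and 224 input counts) and 2.29 at c (10161 and 1448), against altered binding of -0.97 and -0.27. Its native activity median was 0.53 at w, with an effect of 1.16 (exact permutation, adjusted p = 0.00315), and -0.34 at c, with an effect of 0.09 (exact permutation, adjusted p = 0.995). Number 688 showed the same pattern, with native binding of 2.07 and 1.94 and activity effects of 1.79 at w and 0.13 at c. For number 437 native binding was 3.00 at w, where the altered element also reached 2.50, and 1.07 at c, where the altered element was at -0.59. Number 353 had native binding of -0.25 and -1.09, yet an activity effect of 1.40 at its w site (exact permutation, adjusted p = 0.00908). Number 40 lay at -0.68 and -0.67, with no call in activity. In the equal group number 324 had the highest mean binding, from 2.33 at w and -0.50 at c, and number 312 the lowest, from 0.06 and -0.80.

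Binding of the first half-site group was higher where more of the bases A, C and T stood before the damaged half-site. This split was chosen after the data were seen. Matches to these 3 bases were counted in order. First half-site motifs of pool 1 had a mean of 1.5 ± 0.83 (SD, n = 127) and second half-site motifs 1.10 ± 0.74 (SD, n = 62). The difference was -0.41 (permutation, adjusted p = 0.0121 over 73 tests). Pool 3 did not repeat it, with -0.06 at w sites and 0.28 at c sites (permutation, adjusted p = 0.869 and 0.0441). Among first half-site motifs with binding measured at both the w and the c site, mean native binding was 0.13 with no match (n = 7), 0.27 with 1 (n = 16), 0.76 with 2 (n = 15) and 1.52 with 3 (n = 6). With 2 or 3 matches it was 0.97 ± 0.82 (SD, n = 21), against 0.23 ± 0.40 (SD, n = 23) with fewer, a difference of 0.75 (95% interval 0.36 to 1.13, permutation, adjusted p = 0.00448). The difference was 0.82 at w sites and 0.75 at c sites, measured separately (permutation, adjusted p = 0.00146 and 0.00161). With at least 200 input counts it was 0.55 over 29 motifs and did not pass (permutation, adjusted p = 0.155).

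In the mean of w and c, second half-site motifs did not show that difference (permutation, adjusted p = 0.97). They had 0.41 (n = 9) with more and 0.37 (n = 23) with fewer matches. Their difference was 0.29 at w sites and -0.01 at c sites (permutation, adjusted p = 0.602 and 0.992). Equal members at w sites had means of -0.24, 0.43, -0.28 and 1.81 with 0 to 3 matches (n = 8, 6, 3 and 3). Over all members together the difference was 0.69 at w and 0.49 at c sites (permutation, adjusted p = 0.00073 and 0.00599). Whether the first and second half-site groups differ in it was not tested as such. Only 9 second half-site motifs with binding at both sites had 2 or more matches. Within motifs of 2 or 3 matches the second half-site group bound less by 0.56 (permutation, adjusted p = 0.298), and within those of fewer matches it bound more by 0.14 (permutation, adjusted p = 0.602). Single bases are given as a description. In the first half-site group the T next to the half-site went with the largest difference, at 1.02 with T (n = 23) and 0.11 without (n = 21). A gave 0.72 with it (n = 27) and 0.37 without (n = 17), and C gave 0.82 (n = 14) and 0.48 (n = 30). At c sites alone C gave 0.43 and 0.32, and T gave 0.74 and -0.01. T went the same way in the second half-site group, at 0.61 with it (n = 15) and 0.18 without (n = 17). There A and C went the other way, at 0.35 with A and 0.41 without, and at 0.10 with C and 0.48 without. For activity no difference by flank passed. The effect of alteration in the first half-site group at w sites was 0.80 with 2 or 3 matches and 0.57 with fewer, a difference of 0.24 (95% interval -0.06 to 0.53, permutation, adjusted p = 0.386).

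**Figure D3:**
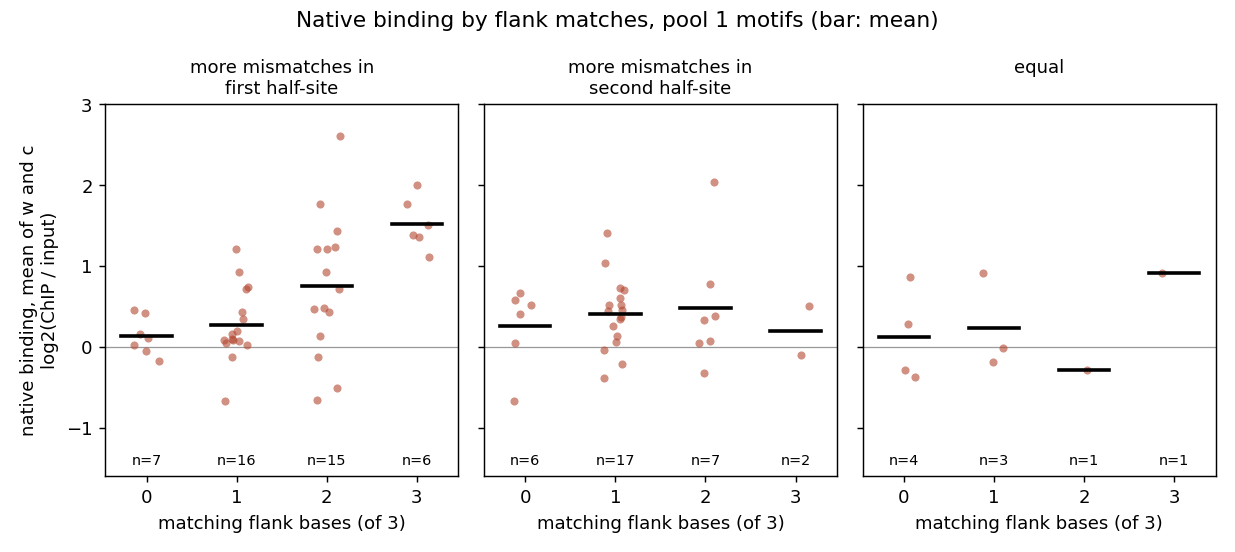
Native binding of pool 1 motifs (mean of the w and c sites, log2 ChIP over input) against the number of flanking bases that match A, C and T, in 3 panels by half-site group, with each point a motif and bars at the mean. In the first half-site group the 6 motifs with 3 matches all lie between 1.12 and 2.01, above every one of the 7 motifs with none, which lie between -0.17 and 0.45. Over single sites, which are not drawn, these ranges overlap. At c, sites with no match reach 2.26 (n = 10) and those with 3 lie between 0.82 and 1.94 (n = 6). At w, sites with no match reach 1.01 (n = 11) and those with 3 start at 0.39 (n = 10).

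The 6 first half-site motifs with the full flank, and 3 of those with no matching flank base, are set out to show what differs before the first half-site.
Full flank, number 216: actGggAcaGaggtca
Full flank, number 527: actGggCcaaaggGca
Full flank, number 529: actGggGcaaaggGca
Full flank, number 538: actaggGGaaaggGca
Full flank, number 569: actaAgGcaGaggtca
Full flank, number 688: actGggtGaaaggGca
No flank match, number 440: cacaggGGaaaggGca
No flank match, number 560: ggcaggAGaaaggGca
No flank match, number 552: ttcaAgGcaaaggtGa

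Numbers 538 and 440 have the same DR1 letters and differ in the flank alone. Number 538 bound at 1.22 (w, 854 ChIP and 255 input counts) and 1.49 (c, 11167 and 2755), and its altered elements lay at -0.35 and 0.04. Number 440 bound at -0.16 (w, 387 and 300) and 0.38 (c, 1731 and 927), and its altered elements lay at -0.28 and 0.17. The pair was picked out after its values were seen, and the sites also differ in their surroundings. Number 529 bound at 1.95 and 0.82 and was 1 of the 2 c members with called higher activity, with an effect of 1.24 there (exact permutation, adjusted p = 0.0257) and of 0.41 at w. Number 560 bound at 0.72 and -0.41, and its w site reached a native activity of 3.86, the highest of the pool 1 members, with 1.51 in the altered form.

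By position, a mismatch at 12 was the only one of 39 tests that passed. Every member has 3 mismatches, so members matching at 12 carry all of theirs elsewhere. The tests therefore compare places of mismatch, not a damaged with an intact motif. Pool 1 w members with a mismatch there lost more activity on alteration, 1.01 ± 0.90 (SD, n = 74) against 0.61 ± 0.83 (SD, n = 145), a difference of 0.40 (permutation, adjusted p = 0.0378). This call was lost under 5 of 7 other ways of computing activity, with differences from 0.20 to 0.34. In pool 3 w the difference was 0.31 (0.93 against 0.62, permutation, adjusted p = 0.546), and 0.0374 with no plasmid minimum. Split by half-site after the data were seen, it was 0.63 in the second half-site group of pool 1 (1.21 against 0.58, permutation, adjusted p = 0.013 over 4 tests) and 0.19 in the first (permutation, adjusted p = 0.338). In pool 3 w the same values were 0.56 (permutation, adjusted p = 0.0687) and 0.27 (permutation, adjusted p = 0.376). Among second half-site members the mean effect with T at position 12 was 1.23 in pool 1 (17 of 17 sites positive) and 1.04 in pool 3 (24 of 27), against 0.58 (23 of 29) and 0.35 (26 of 39) with the consensus C. With A it was 1.76 (3 of 3) and 1.09 (11 of 15), and with G 1.06 (11 of 13) and 0.60 (13 of 20). Among first half-site members T and C gave 0.97 and 0.63 in pool 1, and 0.69 and 0.65 in pool 3. Single bases were not tested.

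**Figure D4:**
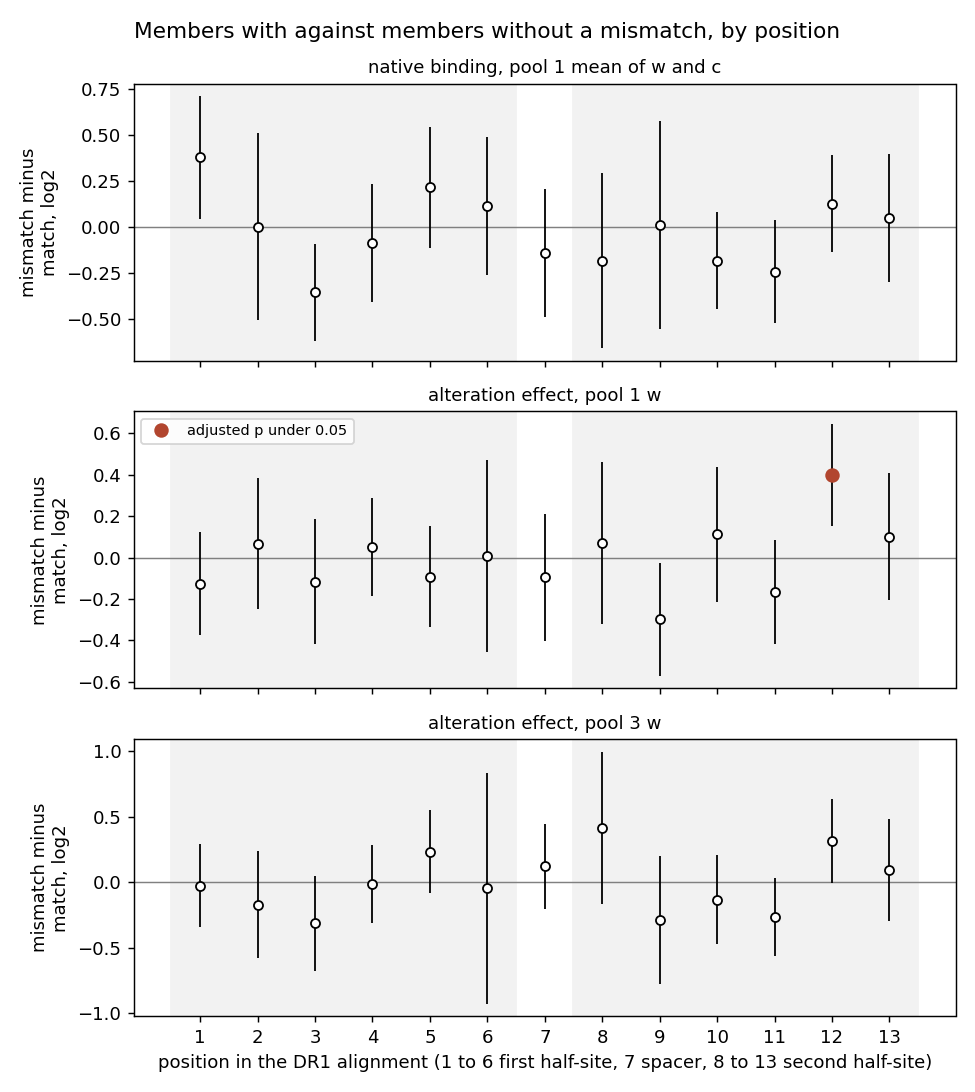
Difference between members with and without a mismatch at each of the 13 positions (log2, mismatch minus match), in 3 panels for native binding in pool 1 and the effect of alteration in pool 1 w and pool 3 w, with 95% intervals from the standard error and shading over the half-sites. Position 12 in pool 1 w, at 0.40, is the single point that passed, and the pool 3 value there, 0.31, did not pass and is 0.0374 with no plasmid minimum.

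Mean binding of the members lay between that of closer and that of weaker motifs, and their w activity differed from neither by an amount that passed. Native binding of all members was 0.61 ± 0.95 (SD, n = 155) at w sites and 0.21 ± 0.79 (SD, n = 122) at c sites. Sites with 4 or more mismatches lay lower by 0.45 and 0.32 (permutation, adjusted p = 0.00012 and 0.00032), and sites with 0 to 2 mismatches had 0.86 and 0.63, from which the members differed at c sites by -0.42 (permutation, adjusted p = 0.0105) and at w sites by -0.25 (permutation, adjusted p = 0.122). Native w activity differed from closer and weaker motifs by 0.06 and 0.08 in pool 1 and by 0.02 and 0.18 in pool 3, with no call (permutation, lowest adjusted p = 0.0794). At pool 1 c sites members exceeded sites with 4 or more mismatches by 0.12 in native activity (permutation, adjusted p = 0.00066). They did so by 0.08 in the effect of alteration (permutation, adjusted p = 0.0415). At pool 3 c sites the same differences were -0.13 and -0.04, and neither passed (permutation, adjusted p = 0.104 and 0.71).

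The half-site split was also applied to sites with 2 and with 4 mismatches. There the gain from c to w in pool 1 differed by half-site by -0.32 (33 and 11 motifs, permutation, adjusted p = 0.612) and by -0.03 (101 and 48 motifs, permutation, adjusted p = 0.998), against 0.42 at 3 mismatches. Native binding at w sites was lower in the second half-site group by 0.23 and 0.04, and neither passed (permutation, adjusted p = 0.672 and 0.986). A single comparison at those mismatch counts passed, a lower native activity of second half-site sites of pool 3 c at 2 mismatches, by -0.70 (28 and 22 sites, permutation, adjusted p = 0.02).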

How the data were processed

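Per the series' design text, the authors counted 16-base barcodes in RNA and plasmid reads, and the deposited pool 1 and pool 3 tables hold raw read counts per barcode (9 and 15 barcodes per element). The deposited pool 1 ChIP table holds raw read counts of ChIP and input for 1992 elements. The submitters' processing notes name mm9 and BWA 0.7.12. How barcodes were matched is not given in the sources used here.

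Activity used barcodes with at least 20 plasmid counts, binding used elements with at least 20 input counts, and each count had a pseudocount of 1. Differences between site groups were tested by 100000 permutations of site labels, within-site effects by sign flips over sites, and single sites by permutation of barcodes, exact up to 200000 arrangements. The smallest p that 100000 permutations can give is 1e-05. All tests were 2-sided, with Benjamini-Hochberg adjustment within each family of tests and a threshold of 0.05. Half-site differences were adjusted within each readout, and barcode tests within each pool and class. Activity and binding were adjusted together over positions (39 tests), flank (73), effects within groups (18), and members against other mismatch counts (24). Intervals are 95% and come from the standard error over sites. The test over barcodes compares barcode means, while printed effects are differences of medians. Tests were checked on simulated data.

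Members and lists were chosen with earlier results of these data known. Named sites were, per half-site group, the called sites with the largest effects (3 per pool at w, 1 at c), all called sites with lower native activity, the 2 motifs with the highest and the 1 with the lowest binding, and numbers used in other pools. Chromosome 18 sites were passed over, and sites with 3 or 0 flank matches were added later. Coordinates are counted from 1. Sites were not assigned to genes. Analyses used Python 3.11.15, numpy 2.4.6 and pandas 2.3.3.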

Additional observations from a re-analysis of the deposited data

Results flagged for a closer look

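In pool 1 the half-site difference in native activity was not the same at w and c sites. The second half-site group was higher by 0.26 at w sites and lower by 0.16 (second minus first -0.16) at c sites, and the difference between the classes, over the same motifs, was 0.42 (permutation, adjusted p = 0.0344). The w minus c difference in the effect of alteration was 0.33 and did not pass (permutation, adjusted p = 0.11). Whether the surroundings of the w and c sites of the 2 groups differ in other ways was not tested.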

How the results depend on the processing

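Of 174 recomputed values of the half-site differences and counts of sites called higher, 155 were taken as unchanged. A difference was unchanged if it kept its direction and its side of the threshold. A count was unchanged if it stayed equal or close to the main count. With 1 library per group, no library could be left out. Values are second minus first half-site. Alignments were single for every member, so that alternative could only give the same values, and its half-site differences are counted among the 155. The lower native activity at pool 1 c was -0.0954 with even-numbered barcodes, -0.11 as a difference of medians, -0.15 without spacer mismatches and -0.26 with all 3 mismatches in 1 half-site, and passed in none of these. The larger w minus c gain in pool 1 was 0.41 with even-numbered barcodes and 0.32 with all 3 mismatches in 1 half-site (22 and 4 motifs), and passed in neither. The cause was not tested, except that the last setting has few motifs.

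Calls were gained for altered activity with summed barcodes, at -0.15 in pool 1 c and 0.29 in pool 3 c (permutation, adjusted p = 0.033 for both), and the cause was not tested. The remaining changes of a difference were of sign, where neither value passed. Pool 3 w native activity was -0.0115 with summed barcodes, -0.0601 with odd-numbered barcodes and -0.19 as medians. Pool 3 c native activity was 0.21 with even-numbered barcodes, 0.0773 as medians and 0.0266 without spacer mismatches. The effect of alteration was -0.0331 with no plasmid minimum, -0.15 with even-numbered barcodes and -0.027 as medians in pool 3 w, and 0.14 with odd-numbered barcodes in pool 3 c. With all 3 mismatches in 1 half-site, the w minus c difference in native binding was 1.19 and the binding effect at c was 0.15, each with 2 second half-site motifs. Altered activity was -0.0222 with a pseudocount of 5, -0.0203 with at least 100 plasmid counts, -0.087 with summed and -0.14 with odd-numbered barcodes in pool 3 w, -0.00571 with summed barcodes in pool 1 w and -0.22 with odd-numbered barcodes in pool 3 c. With at least 100 plasmid counts, 1 first half-site member of pool 3 c was called higher.

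Limits: the settings for the flank and for position 12 were added after seeing the data. The position 12 difference in pool 1 w fell to 0.20 with summed barcodes and 0.26 with odd-numbered barcodes, and that in pool 3 w to 0.0374 with no plasmid minimum. The ChIP table leaves 86 and 49 first and second half-site members with native binding at w, and 66 and 42 at c, which limits the precision of the binding differences. Some members share a 16-base sequence (214 distinct among 219 in pool 1) and are not independent.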
